A study of Homo sapiens with 8 samples.

Results

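Regions of GM12878 chromatin that carried NIPBL and MED1 but no called SMC1A numbered 827. The count covers regions found by merging the overlapping peaks of all 6 deposited peak lists on chromosomes 1 to 22 and X, which gave 92867 merged regions. A member had to hold a peak of both NIPBL lists and both MED1 lists and no peak of either SMC1A list. Of the 7480 merged regions that met the first condition, 827 met the second, or 11.1% (exact 95% binomial interval 10.4 to 11.8). A further 1358 held SMC1A in 1 list, and 5295 held it in both. Members were thus chosen by the peak calls themselves, so fold enrichments in the same libraries are given as a description and were not tested. Intervals are exact binomial ones, which cover counting error only, and neighbouring regions are not independent.

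NIPBL loads the cohesin ring onto DNA, and SMC1A is one of the subunits of that ring. Cohesin holds chromatin in loops, and most of its lasting positions in the genome are shared with the insulator protein CTCF. MED1 is a subunit of Mediator, the large complex that carries signals from transcription factors bound at enhancers and promoters to RNA polymerase II. NIPBL has been found with Mediator at active enhancers and promoters, and mutations in NIPBL or SMC1A cause Cornelia de Lange syndrome, the disorder named in the title of the series. A NIPBL and MED1 region without SMC1A is therefore a place where the loader was called and its cargo was not.

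All libraries came from GM12878, an established lymphoblastoid line made from B lymphocytes, grown without treatment and representing a single cell line. ChIP-seq was done with antibodies against NIPBL, SMC1A and MED1, with 2 libraries for each, and 2 whole cell extract libraries served together as the control for every list. In ChIP-seq, chromatin is crosslinked and sheared, an antibody pulls down the fragments bound to its protein, and sequencing shows where in the genome they came from. The labels do not tie the replicates to separate cultures, and the differences between them could therefore be technical only. No test was run, since the rule reads the same peaks and each protein has 2 libraries.

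The lists differed in length and depth, which bears on every count here. Replicates 1 and 2 held 21422 and 15357 peaks for NIPBL, 18131 and 45046 for MED1, and 56510 and 68228 for SMC1A. Depth relative to MED1 replicate 1, the deepest library, ran from 0.743 for SMC1A replicate 2 to 0.965 for NIPBL replicate 1. The fragments stacked at a summit, its pileup, were solved from the deposited values, and came out as whole numbers in 100% of peaks (within 0.05). The SMC1A lists were the longest, although both SMC1A libraries (relative depth 0.752 and 0.743) were the shallowest, close to MED1 replicate 2 at 0.755.

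SMC1A was not called in 11.1% of the regions with NIPBL and MED1, and this was the lowest share among the combinations of the 2 factors that were counted. Where both MED1 lists had a peak and neither NIPBL list did, 2292 of 4472 regions lacked SMC1A, or 51.3% (49.8 to 52.7). Where both MED1 lists and 1 NIPBL list had a peak, the share was 29.2% (27.6 to 30.9) of 2970 regions. Where both NIPBL lists had a peak and no MED1 list did, it was 27.5% (24.2 to 31.0) of 698 regions. With both NIPBL lists and 1 MED1 list it was 30.2% (28.5 to 32.0) of 2755 regions. The regions with MED1 but neither of the others had weaker MED1 than the members, with median fold enrichments of 3.39 and 5.98 (replicates 1 and 2) against 3.81 and 7.23, and the part of peak strength in these shares was not tested. The share also depended on the length of the SMC1A lists. It was 19.8% (1480 regions) with SMC1A peaks kept only at a −log10 q of at least 5. With the 15357 peaks of highest fold enrichment in every list it was 94.4% (5252 of the regions then holding both proteins).

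A missing SMC1A peak does not show that SMC1A was absent. The control estimate at each member, read at its NIPBL and MED1 summits and scaled to SMC1A depth, gives the pileup an SMC1A summit would have needed to pass the weakest p-value in its list. The scaling held where summits of an SMC1A library and another library lay within 20 bp of each other. For NIPBL replicate 1 and SMC1A replicate 1, the control ratio had a median of 0.780 over 1308 such summits, and the depth ratio was 0.780. At members the median pileup needed was 15 fragments in both SMC1A libraries. This corresponds to a median fold enrichment of 2.43 in replicate 1 and 2.42 in replicate 2, with 90% of members between 2.17 and 2.80 in replicate 1. Fold enrichment here is the deposited linear ratio of the summit to its local control. The highest value needed at any member was 3.10. The limit is approximate, since an SMC1A summit can lie elsewhere in the region, over another control. Some SMC1A peaks were called below it, such as that at chr10:15001275-15002507, called in replicate 2 at 2.14 where 2.44 was estimated. Called SMC1A peaks at NIPBL and MED1 regions stood at a median of 1.85 and 2.1 times the limit in replicates 1 and 2, and no peak of any list was under 200 bp wide.

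SMC1A at the other NIPBL and MED1 regions is given here as a description. A called peak has passed the threshold the limit was built from, so values above the limit follow largely from the choice of regions. Where both SMC1A lists had a peak, the median SMC1A fold enrichment was 4.48 in replicate 1 and 5.47 in replicate 2. Of these 5295 regions, 90.3% exceeded 3.10 in replicate 1 and 96.6% in replicate 2. Where only replicate 1 had a peak, the median was 3.43 (173 regions). Where only replicate 2 had a peak, it was 3.70 (1185 regions). Of these regions with SMC1A in 1 list, 74.6% and 79.8% exceeded 3.10. SMC1A of replicate 2 alone kept 1185 of the 1358 from being members. Without SMC1A replicate 2 the members would number 2017, or 27.0% of NIPBL and MED1 regions.

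**Figure D1:**
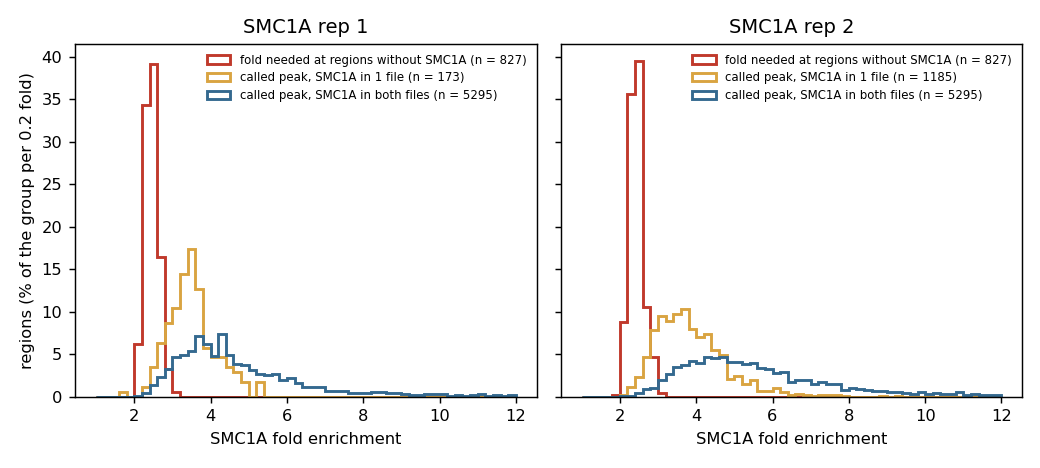
SMC1A fold enrichment on the x axis (drawn up to 12) against the percentage of each group of regions on the y axis, for SMC1A replicates 1 and 2. The red line is the fold a summit would have needed at the 827 regions without SMC1A, with medians of 2.43 and 2.42, and it overlaps the lower part of the called peaks at regions with SMC1A in 1 file (medians 3.43 and 3.70) and in both files (medians 4.48 and 5.47), which were selected by the same threshold.

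Control estimates were similar at members and at the other NIPBL and MED1 regions. Scaled to SMC1A replicate 1, the median control estimate was 5.50 at members, 5.64 with SMC1A in 1 list and 5.97 with SMC1A in both. The pileup needed for a call had medians of 15, 15 and 16 fragments in that order. The fold enrichment needed had medians of 2.43, 2.42 and 2.39. These estimates were scaled from NIPBL and MED1 summits, and the part of the control in the missing calls was not tested.

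NIPBL at members was of middle strength. The median fold enrichment of the strongest NIPBL peak was 4.11 in replicate 1 and 4.09 in replicate 2, or 4.10 ± 0.018 (SD, n = 2). The values ran from 2.05 to 14.7 in replicate 1 and from 2.2 to 10.4 in replicate 2. Within their own lists these medians stood at percentiles 58.0 and 50.5. Where both SMC1A lists had a peak, NIPBL had medians of 4.76 and 4.63, at percentiles 74.7 and 67.6. The median NIPBL fold at members was thus 13.5% and 11.8% lower than with SMC1A in both lists, and the ranges of the groups overlapped in both replicates. The strongest peak was taken from unequal numbers of peaks. In replicates 1 and 2, 76 and 47 of 827 members held 2 or more NIPBL peaks. With SMC1A in both lists, 1219 and 1010 of 5295 regions did, and the part of this in the gap was not tested. Median NIPBL pileups at members were 32 and 28 fragments, against 40 and 33.

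MED1 was also lower at members, and whether the gap was larger than that of NIPBL depended on the scale. At members the strongest MED1 peak had a median fold enrichment of 3.81 in replicate 1 and 7.23 in replicate 2. With SMC1A in both lists the medians were 4.80 and 10.1, so that members lay 20.5% and 28.5% lower. Here too the numbers of peaks differed, with 2 or more MED1 peaks at 93 and 16 of 827 members. With SMC1A in both lists it was 1264 and 328 of 5295 regions. In percentiles within the list, members had medians of 50.1 and 79.4, against 75.9 and 91.4. The gap was 25.8 points in MED1 replicate 1 and 11.9 in replicate 2, against 16.7 and 17.1 points for NIPBL. Regions with SMC1A in 1 list had MED1 medians of 4.04 and 7.88 and NIPBL medians of 4.28 and 4.20, between the other classes in all 4 libraries. MED1 replicate 2 gave higher fold enrichments throughout, with a median pileup of 47 fragments at members against 30 in the deeper replicate 1. Ratios between libraries therefore carry the scale of each library, and only their differences between classes of region are read.

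**Figure D2:**
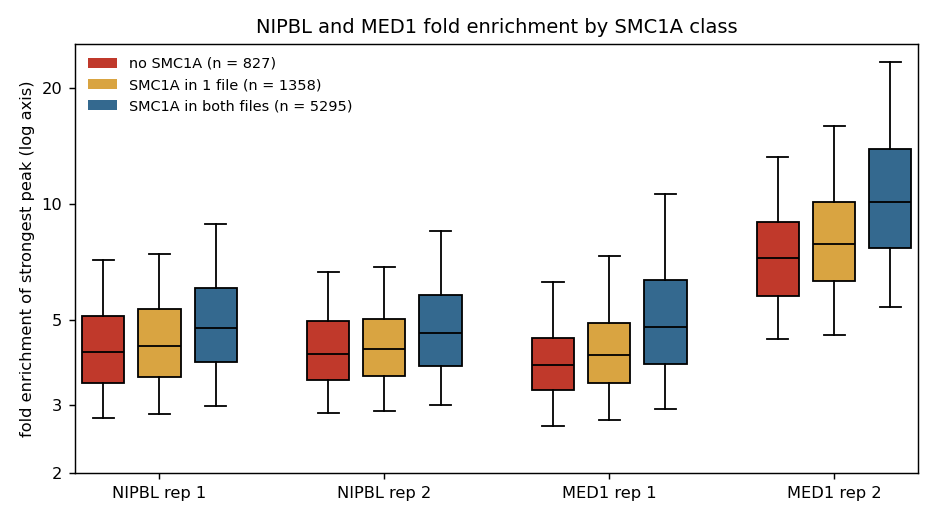
Fold enrichment of the strongest NIPBL or MED1 peak in each region (log axis) in the 4 libraries, by SMC1A class. Boxes span the quartiles with the median as a line, and whiskers reach the 5th and 95th percentiles. In every library the median is lowest without SMC1A and highest with SMC1A in both files, from 3.81 to 4.80 and 7.23 to 10.1 for MED1, and from 4.11 to 4.76 and 4.09 to 4.63 for NIPBL.

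The ratio of NIPBL to MED1 fold enrichment shifted with the class. In replicate 1, the log2 ratio of NIPBL to MED1 fold enrichment had a median of 0.13 at members, 0.09 with SMC1A in 1 list and -0.02 with SMC1A in both. In replicate 2 the medians were -0.81, -0.90 and -1.12. NIPBL exceeded MED1 at 61.7% of members in replicate 1, against 48.1% of regions with SMC1A in both lists. In replicate 2 these shares were 7.38% and 2.15%. Relative to regions with SMC1A in both lists, the fold ratio at members was shifted toward NIPBL in both replicates. The level of the ratio was set by the replicate, and in replicate 2 MED1 exceeded NIPBL at most members. In percentiles within the list, replicate 2 went the other way. Members there were 17.1 points lower in NIPBL and 11.9 points lower in MED1.

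The share of regions without SMC1A fell with MED1 strength at each level of NIPBL, while its course along NIPBL differed between levels of MED1. The 7480 NIPBL and MED1 regions were split into 3 equal bins of NIPBL and 3 of MED1, each by the mean percentile of fold enrichment over its 2 lists. In the lowest MED1 bin, 18.6% of regions lacked SMC1A at low NIPBL (16.6 to 20.9, n = 1287). At middle NIPBL the share was 17.8% (15.2 to 20.5, n = 838), and at high NIPBL it was 20.4% (16.4 to 24.9, n = 368). In the middle MED1 bin it was 14.5% at low NIPBL (12.2 to 17.0, n = 858). It was 9.05% at middle NIPBL (7.27 to 11.1, n = 917) and 9.47% at high NIPBL (7.43 to 11.9, n = 718). In the highest MED1 bin the share went from 8.05% at low NIPBL (5.41 to 11.4, n = 348) to 3.93% at middle NIPBL (2.65 to 5.59, n = 738). It was 2.2% at high NIPBL (1.5 to 3.11, n = 1408). A region with strong NIPBL and weak MED1 thus lacked SMC1A about as often as a region weak in both. Width also rose with MED1. With SMC1A in both lists, the median width was 829 bp in the lowest of 5 equal bins of MED1 and 1720 bp in the highest. Across 5 equal bins of NIPBL it was 1025 bp in the lowest and 1142.5 bp in the highest. The part of width in these shares was not tested.

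**Figure D3:**
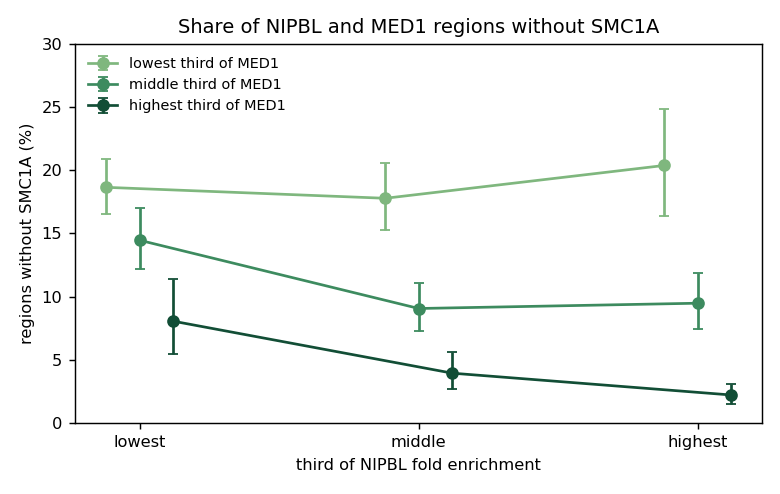
Percentage of NIPBL and MED1 regions without SMC1A (y axis) across 3 equal bins of NIPBL fold enrichment (x axis), with a line for each of 3 equal bins of MED1. Error bars are exact 95% binomial intervals. The line for weak MED1 stays between 17.8% and 20.4%, and the line for strong MED1 falls from 8.05% to 2.2%. The line for middle MED1 goes from 14.5% at low NIPBL to 9.05% and 9.47% at middle and high NIPBL.

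Each replicate pair taken alone gave the same order by MED1. With bins from replicate 1 alone, the lowest MED1 bin had shares of 19.1%, 17.6% and 15.3% from low to high NIPBL. With replicate 2 alone they were 19.25%, 18.2% and 22.1%, so that the direction along NIPBL within weak MED1 was not shared between replicates. The highest MED1 bin fell from 6.64% to 2.48% in replicate 1 and from 6.55% to 2.41% in replicate 2. Judged by SMC1A replicate 1 alone, 42.2%, 37.8% and 38.9% of regions with weak MED1 lacked SMC1A, against 23%, 12.9% and 9.45% with strong MED1. Judged by SMC1A replicate 2 alone, the values were 21.7%, 21.5% and 23.6% against 10.1%, 5.01% and 2.91%. The level depended on the SMC1A list, while with either list the shares were higher at weak than at strong MED1.

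Members as a whole were narrower than regions that held SMC1A in both lists, although this depended on MED1. Their median width was 721 bp (quartiles 532 and 1080), with a range of 287 to 5631 bp. Regions with SMC1A in 1 list had a median of 748.5 bp and those with SMC1A in both 1090 bp. The share without SMC1A was 28.2% among the 621 regions up to 500 bp wide (24.7 to 31.9) and 1.23% among the 162 wider than 5000 bp (0.15 to 4.39). A long region offers an SMC1A peak more places to fall, which builds part of this order into the rule. SMC1A peaks were also merged into the regions that hold them, and so could lengthen or join those regions. The width of a member comes from NIPBL and MED1 peaks alone. The merging can thus add to the differences in width between the classes and to the order by width, and its part was not tested. In the highest of 5 equal bins of NIPBL and MED1 regions, ranked by the mean percentile over 4 lists, the 41 members had a median width of 725 bp, against 1342 bp for regions with SMC1A in both lists. In the lowest of the 5 bins the medians were 690 and 889.5 bp, with 293 members. Ranked by MED1 alone, the highest bin held 37 members with a median width of 2106 bp, against 1720 bp with SMC1A in both lists. All 9 members of the histone gene stretch described further on, with a median width of 3665 bp, are among them. By MED1 replicate 1 alone, the highest bin held 42 members with a median of 1625 bp, against 1714 bp.

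By the median, the 4 summits of a member were somewhat more spread than in the other classes. The distance between the outermost of the 4 strongest summits had a median of 112 bp (quartiles 64 and 224), and it was 100 bp or less at 375 of the 827 members, or 45.3%. The median was 92 bp with SMC1A in 1 list and 95 bp with SMC1A in both, with 54.6% and 52.2% at 100 bp or less. The upper quartiles were 161 and 220.5 bp, the second close to that of members. Spreads over 1000 bp occurred at 25 of the 827 members, 33 of 1358 regions with SMC1A in 1 list and 364 of 5295 with it in both. Between the NIPBL replicates the median distance was 47 bp, and between the MED1 replicates it was 42 bp. NIPBL and MED1 summits of the same replicate number lay a median of 59 bp apart in replicate 1 and 49 bp in replicate 2. The separation of the 2 proteins was thus little larger than that of repeat libraries of a single protein. Most members held 1 peak of each list, namely 751 members in NIPBL replicate 1, 780 in NIPBL replicate 2, 734 in MED1 replicate 1 and 811 in MED1 replicate 2.

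Across members, the strength of NIPBL was weakly related to that of MED1. Over the 827 regions, Spearman's rho between NIPBL and MED1 fold enrichment was 0.22 in replicate 1 and 0.15 in replicate 2. Between the replicates of a protein, rho was 0.57 for NIPBL and 0.59 for MED1. At regions with SMC1A in both lists the NIPBL to MED1 values were 0.43 and 0.45, and the replicate values 0.71 and 0.83. These correlations run across regions that share libraries and the same control, over a narrower range of strength at members, and are descriptions.

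Members with the highest MED1 gathered in a single stretch of chromosome 6. Of the 10 members with the highest MED1, by the mean percentile over both lists, 8 lay between 26 and 27.9 Mb on chromosome 6, and a 9th was among the first 20. This stretch holds the large cluster of replication-dependent histone genes, which supply core and linker histones during DNA synthesis. The window was chosen after these values had been seen, and the genes are named from general knowledge, since no gene positions of this build were used here. None of the 10 members with the highest NIPBL lay in it.

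The histone stretch held 28 NIPBL and MED1 regions, of which 9 had no SMC1A, 9 had it in 1 list and 10 in both. The 9 members had MED1 fold enrichments of 13.7 to 28.6 in replicate 1 (median 19.3) and 25.8 to 69.2 in replicate 2 (median 41.8). Their NIPBL fold enrichments were 3.28 to 5.94 (median 3.85) and 3.0 to 5.45 (median 3.85), somewhat below the medians of all members (4.11 and 4.09). MED1 there was well above the medians of all members (3.81 and 7.23). The regions with SMC1A in both lists in the same stretch had similar MED1, with medians of 19.7 and 38.2, and higher NIPBL, with medians of 5.41 and 5.62. SMC1A at these 10 regions had medians of 3.72 and 4.27. The 9 members would have needed SMC1A of at most 2.80 and 2.82 to be called. Of the 9 regions with SMC1A in 1 list, 7 had it in replicate 2 alone, so that 16 of the 28 regions would be members without that library.

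**Figure D4:**
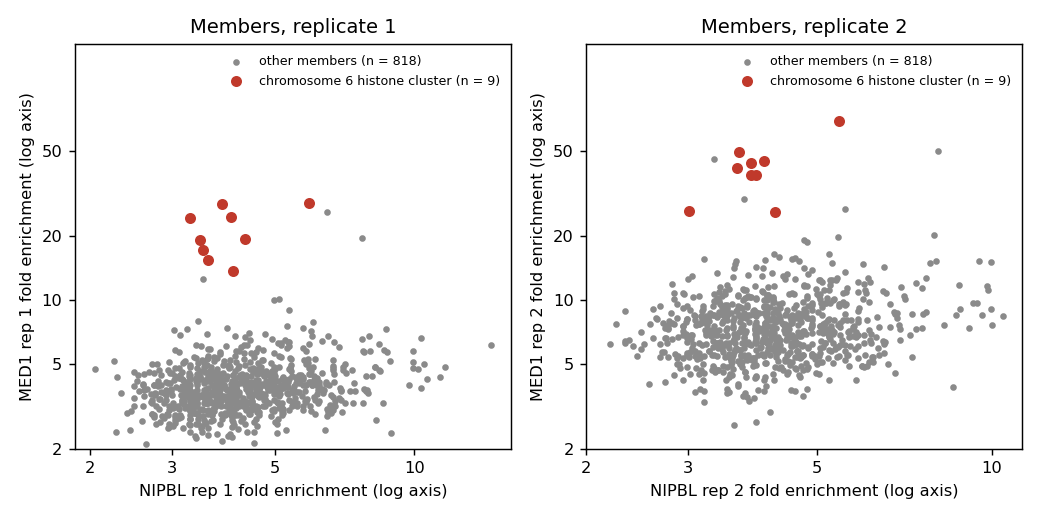
NIPBL (x axis) against MED1 (y axis) fold enrichment of the 827 members, both on log axes, in replicates 1 and 2. The 9 members of the histone stretch of chromosome 6 (red) have MED1 of 13.7 to 28.6 and 25.8 to 69.2 at NIPBL of 3.28 to 5.94 and 3.0 to 5.45; the other members (grey) reach at most 26.1 and 50.2 in MED1.

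Examples show what these members look like. The region chr6:27796999-27799155, 2157 bp wide, had MED1 of 28.6 and 69.2 (replicates 1 and 2), from pileups of 153 and 264 fragments, and the second was the highest value in the whole MED1 replicate 2 list. Its NIPBL was 5.94 and 5.45, from 30 and 24 fragments, and the nearest SMC1A peak lay 9140 bp away. The region chr6:26029877-26034802 had MED1 of 28.3 and 49.7 with NIPBL of 3.85 and 3.66. The region chr6:27098513-27103260 had MED1 of 19.2 and 38.7 with NIPBL of 3.46 and 3.85. The region chr6:26054007-26057671 had MED1 of 24.4 and 44.3 with NIPBL of 3.28 and 3.84. Over all 9, the log2 ratio of NIPBL to MED1 fold enrichment lay between -2.89 and -1.76 in replicate 1 and between -3.76 and -2.61 in replicate 2.

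The stretch also held the largest group of members. Members no more than a stitching distance of a little over 12 kb from each other, a distance often used to join enhancers, formed 1 group of 4, 34 pairs and 755 single regions. The group of 4 spanned 37.3 kb at chr6:26020397-26057671 and enclosed 1 region with SMC1A in both lists. That region, chr6:26025524-26028644, had MED1 of 25.1 and 43.0, NIPBL of 6.20 and 6.63, and SMC1A of 5.09 and 5.77. Its neighbours on either side, members both, had NIPBL of 4.06 and 3.0, and of 3.85 and 3.66. Both neighbours thus had lower NIPBL than the region with SMC1A between them, in both replicates.

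Outside that stretch, very strong MED1 without SMC1A was rare. Among NIPBL and MED1 regions in the top 1% of both MED1 lists, 11 of 144 lacked SMC1A, or 7.64% (3.87 to 13.3). With the histone stretch set aside, 2 of 121 did, or 1.65%. In the top 5% of both lists the counts were 17 of 774, or 2.2%, and 8 of 749 outside the stretch, or 1.07%. Both of the remaining members in the top 1% are described next.

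The strongest member of all, by the mean percentile over both NIPBL and both MED1 lists, was chr14:106047618-106048784. It lies in the immunoglobulin heavy chain locus, which B cells rearrange and transcribe heavily. This locus too is named from general knowledge and not from gene positions of this build. NIPBL there was 7.72 and 8.09 (pileups 30 and 27), and MED1 was 19.6 and 50.2 (pileups 80 and 158). SMC1A would have needed 9 fragments in either library, and the nearest SMC1A peak was 3333 bp away. The other, chr1:148241289-148242304, had MED1 of 26.1 and 46.1 and NIPBL of 6.47 and 3.31. Its nearest SMC1A peak was 240395 bp away, a distance exceeded by a single other member. Its NIPBL differed between replicates by more than the NIPBL of the heavy chain member did.

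The 15 strongest members spread over 14 chromosomes, with widths of 365 to 2157 bp. Their NIPBL had medians of 8.39 and 8.67 and their MED1 medians of 6.17 and 11.8. The second, chr15:40835883-40836462, reached 10.3 and 9.95 in NIPBL and 6.64 and 15.1 in MED1, with an SMC1A peak 263 bp from its edge. The third, chr2:100863899-100864750, reached 9.95 and 9.49 in NIPBL and 5.76 and 15.2 in MED1, with SMC1A 952 bp away. Neither would be a member if SMC1A also had to be absent within 1000 bp.

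Others of the 15 stood well apart from SMC1A. The fifth, chr11:37525300-37526039, had the highest NIPBL of any member in replicate 1, at 14.7 from 88 fragments, and 9.41 from 47 fragments in replicate 2. Its MED1 was 6.17 and 9.65, and the nearest SMC1A peak lay 20904 bp away. The sixth, chr16:18937602-18938328, had NIPBL of 8.69 and 7.09, MED1 of 7.29 and 10.1, and SMC1A at 13092 bp. The eighth, chr7:156715817-156716181, was the narrowest of the 15, at 8.72 and 9.26 in NIPBL and 5.68 and 9.66 in MED1. At the fifteenth, chr10:18947610-18948658, SMC1A lay 29787 bp away, the farthest of the 15. NIPBL there was 5.37 and 7.83 and MED1 was 6.35 and 14.9. Of the 15, 8 had an SMC1A peak within 5 kb, with a median distance of 4.64 kb.

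Most of the remaining strong members ranked higher in NIPBL than in MED1. The fourth, chr5:94950657-94951206, reached 8.39 and 8.78 in NIPBL and 6.22 and 11.8 in MED1. The tenth, chr1:167677584-167678899, reached 8.88 and 9.85 in NIPBL and 5.17 and 11.1 in MED1. The seventh, chr1:31237681-31239208, was an exception, with MED1 of 10.1 and 20.3 and NIPBL of 5.10 and 7.94.

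The 5 widest members differed in MED1. The widest, chr17:79477646-79483276, spanned 5631 bp and held 4 peaks of MED1 replicate 1 under a single peak of replicate 2. Its MED1 was 12.55 and 29.9, its NIPBL 3.51 and 3.74, and its strongest summits lay up to 3876 bp apart. The third and the fifth widest were the histone regions of 4926 and 4748 bp given above. The second, chr3:185650625-185656174, instead had 7 peaks of NIPBL replicate 2, at 4.52 and 4.27 in NIPBL and 3.18 and 8.67 in MED1. The fourth, chr5:142774274-142779117, reached 5.35 and 4.97 in NIPBL and 3.62 and 4.53 in MED1, with 5 peaks of NIPBL replicate 2. MED1 in both was below that of the other 3.

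SMC1A was called within 50 kb of most members although not inside them. The nearest SMC1A peak of either list lay a median of 4965 bp from the edge of a member (quartiles 1452.5 and 14459). It was within 1 kb of 150 members, or 18.1% (15.6 to 20.9), and within 5 kb of 415, or 50.2% (46.7 to 53.6). Within 50 kb it was found for 96.5%. Around regions with SMC1A in both lists, the nearest SMC1A peak outside the region lay a median of 2317 bp away, and 69.7% had it within 5 kb. Around the 2292 regions with both MED1 lists and neither NIPBL nor SMC1A, the median was 5438 bp and the share 48.0% (46.0 to 50.1). The interval of this share overlaps that of the members.

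The SMC1A neighbours of members were mostly called in both SMC1A libraries. In 70.5% of members the nearest SMC1A region was present in both SMC1A lists, and its median fold enrichment in replicate 2 was 6.82 (789 members). Around regions with SMC1A in both lists the nearest outside neighbour had a median of 4.78 in the same library. The neighbour of a member held a NIPBL or MED1 peak of its own in 53.1%, against 75.3% for regions with SMC1A in both lists. Members had SMC1A within the stitching distance on both sides in 30.7%, against 49.1%.

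**Figure D5:**
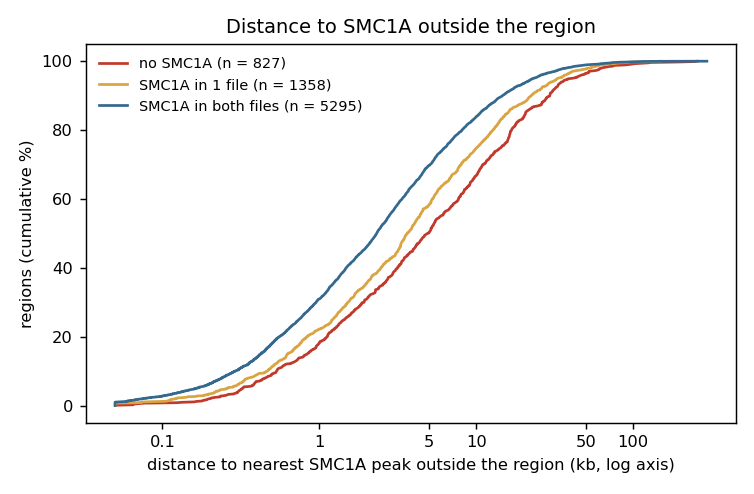
Cumulative percentage of regions (y axis) by distance to the nearest SMC1A peak outside the region (x axis, kb, log axis; distances under 0.05 kb drawn there), for the 3 classes of NIPBL and MED1 regions. The curve for regions without SMC1A lies to the right, reaching 50.2% at 5 kb, against 69.7% for regions with SMC1A in both files.

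The members farthest from SMC1A were not alike in strength. At chr2:81872922-81873296, 375 bp wide, the nearest SMC1A peak was 256239 bp away. NIPBL there was 4.33 and 4.65 and MED1 4.23 and 4.44, from 16 to 19 fragments in each of the 4 libraries. At chrX:5564889-5565337, SMC1A was 188209 bp away, NIPBL was 6.68 and 6.95, and MED1 was 3.06 and 6.46. At chr4:72978263-72978609 the distance was 130296 bp, at 7.33 and 5.18 in NIPBL and 4.72 and 9.69 in MED1. At chr4:54232065-54232627 it was 124532 bp, at 3.67 and 3.6 in NIPBL and 2.89 and 5.85 in MED1. The chromosome 1 region given above is the remaining 1 of the 5 farthest, and its MED1 was the highest among them.

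Members stood alone among NIPBL and MED1 regions more often than regions with all 3 proteins, although they lay near another member more often. When NIPBL and MED1 regions up to the stitching distance apart were joined, 577 members stood alone, or 69.8%, against 45.1% of regions with SMC1A in both lists. Another member lay within that distance of 72 members, or 8.71% (6.87 to 10.8). A member lay that near to 5.08% (3.97 to 6.39) of regions with SMC1A in 1 list. For regions with SMC1A in both lists it was 4.08% (3.56 to 4.65). A region with SMC1A in both lists lay within that distance of 159 members, or 19.2% (16.6 to 22.1). The share with such a region nearby was 29.6% for regions with SMC1A in 1 list and 48.7% for those with it in both. The median distance from a member to the nearest other NIPBL and MED1 region was 79.6 kb, against 9.71 kb for regions with SMC1A in both lists. Regions with SMC1A in 1 list lay between these, at 23.1 kb. Of the 827 members, 23 fell in clusters of at least 5 NIPBL and MED1 regions, a count not made for the other classes.

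No chromosome was without members, and most shares were near the overall 11.1%. Chromosome 1 held 99, or 15.0% of its 662 NIPBL and MED1 regions (12.3 to 17.9), and chromosome 11 held 50, or 15.2% (11.5 to 19.5). Chromosome 22 had 20, also 15.2% (9.51 to 22.4). The lowest shares were on chromosome 21, with 4 of 100 regions (1.10% to 9.93%), and on chromosome 15, with 18 of 279, or 6.45% (3.87 to 10.0). Chromosome 6, with the histone stretch, held 45, or 8.49% (6.26 to 11.2). The intervals of chromosomes 1 and 11 lay above 11.1% and those of chromosomes 15 and 21 below it, with no adjustment for the number of chromosomes. Those of the other chromosomes contained it.

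Some members passed the rule narrowly. The weakest of the 4 required peaks had a median −log10 q of 5.01 at members. It was a peak of MED1 replicate 1 at 349 members, of NIPBL replicate 2 at 301, of NIPBL replicate 1 at 171 and of MED1 replicate 2 at 6. Just inside the rule, chr17:8709724-8711291 passed with NIPBL replicate 2 at a −log10 q of 1.39, and chr16:30076157-30077375 with NIPBL replicate 1 at 1.41. The next, chr3:66522753-66523511, passed with MED1 replicate 1 at 1.42.

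Just outside it, 3 regions were excluded by a single weak SMC1A peak of replicate 2. At chr10:15001275-15002507 that peak had a fold enrichment of 2.14 and a −log10 q of 1.35, with NIPBL of 3.99 and 4.73 and MED1 of 4.83 and 8.13. At chr17:1496061-1496925 it had 2.27 and the same −log10 q of 1.35, with NIPBL of 4.39 and 7.13. At chr3:101510529-101511137 it had 2.25 and 1.63, with NIPBL of 4.18 and 3.81. All 3 SMC1A values lie below 2.42, the median fold that members would have needed in that library.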

How the data were processed

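NIPBL, SMC1A and MED1 were profiled by ChIP-seq in 2 GM12878 libraries each, with 2 whole cell extracts. Cells were crosslinked with 1% formaldehyde for 10 min, per the labels' protocols. Each library has its own peak list, set by the authors against both extracts pooled, per the labels. Trimmomatic 0.33, BWA 0.7.12, MACS2 2.1.0 and build hg19 are named in the submitters' processing notes. For the settings of these tools, the entry is "not given in the sources used here".

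Fold enrichment, as the authors deposited it, is the ratio of a summit to its local control, on a linear scale. The deposited −log10 p and −log10 q also describe the summit, the deposited summit offset gave its position, and the deposited score was not used. Peaks were merged on an overlap of at least 1 bp. Percentiles rank fold enrichment within a list. Pileup and control were solved from fold enrichment and p, assuming unscaled ChIP libraries of equal fragment length. Merging and solving were tested on simulated data. The peak lists used here give no read totals, so depth is relative.

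The members and lists were chosen with earlier results of these data known. Named regions are the 15 strongest members, the 5 widest, the 5 farthest from SMC1A, the 5 largest groups and 3 regions on each side of the threshold. Of the groups only the largest is described, since the next 4 were tied in size with the other pairs. The histone stretch, the examples in it and the MED1 thresholds of 1% and 5% were chosen after values were seen. Positions are 1-based on hg19. Neither a genome nor gene models of that build were used here, so the planned sequence features were not examined. Python 3.11.15, numpy 2.4.6, pandas 2.3.3 and scipy 1.17.1 were used.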

Additional observations from a re-analysis of the deposited data

How the results depend on the processing

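Of 84 values (7 results under 12 alternatives), 45 stayed within the spread or, for the count, within 1.5 times, and 39 moved; the cause was not tested beyond what each alternative removes. All 12 MED1 values (3.81 to 7.61) count as unmoved from 5.52 because the spread between the 2 MED1 libraries is an SD of 2.42. Keeping a −log10 q of at least 2 in all lists moved the median NIPBL fold enrichment from 4.10 to 4.12. At 5 in all lists the 757 members included only 419 of the 827, NIPBL was 4.68, the share without SMC1A 14.6% and the share of members with SMC1A within 5 kb 45.8%. At 5 in the SMC1A lists alone there were 1480 members, 19.8% of NIPBL and MED1 regions, and 13.3% had another member within the stitching distance (8.71% as deposited). With every list limited to its 15357 peaks of highest fold enrichment there were 5252 members (94.4%), with a median width of 968 bp and NIPBL of 4.89. Of these, 8.89% had SMC1A within 5 kb and 43.6% another member nearby, and 452 of the 827 members were found again. SMC1A within 5 kb fell to 46.7% when peaks up to 200 bp apart were merged. Requiring no SMC1A within 1000 bp gave 39.1%, and 9.05% of regions without SMC1A. Leaving out 1 library gave 928 to 2017 members, above 1.5 times the 827 without SMC1A replicate 2 (2017), MED1 replicate 1 (1652) or NIPBL replicate 2 (1424). The share without SMC1A was then 11.9% to 27.0%, the median width 482 to 742 bp, NIPBL 3.76 to 4.17 and MED1 3.81 to 5.82. SMC1A lay within 5 kb of 42.1% to 55.3%, and another member nearby in 8.79% to 14.8%. No paired analysis was possible because the results come from no test. Peak lists hold no signal below their own threshold, which limits every statement on missing SMC1A.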
